A study of Mus musculus with 15 samples.

Results

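Cytochrome P450 enzymes were examined in fibroblasts sorted from injured and uninjured mouse kidney. The family was taken as every gene on the array whose symbol follows the form Cyp, family number, subfamily letter and gene number, from probe sets that the platform annotation assigns to 1 gene. The rule gave 64 genes of the 17097 genes named in the annotation, from 78 probe sets. For the 11 members with more than 1 probe set, the one with the highest mean over the 15 arrays stood for the gene. Symbols of another form, such as Cyp51 and Cyp4a12a, fell outside the rule, and 4 of these were named by probe sets of 1 gene. The study compared 5 groups of 3 arrays each: uninjured kidney, kidney on days 3, 7 and 14 after folic acid, which induces an acute tubular injury, and kidney on day 14 of unilateral ureteral obstruction (UUO), a surgical block of one ureter that gives lasting fibrosis. The mice were adult C57BL/6 animals, and all groups consisted of PDGFra-positive cells sorted by flow cytometry. PDGFra is a surface receptor of fibroblasts. The labels give no age beyond adult, and they leave unstated whether arrays within a group represent different mice. Each p-value thus reflects only the variation among these arrays, and that variation may be technical.

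Cytochrome P450 proteins are haem enzymes that insert an oxygen atom into fatty acids, steroids, vitamins, drugs and other foreign compounds, using electrons from a reductase or a ferredoxin. In kidney, the proximal tubule is the main site of fatty acid hydroxylases of the Cyp4a subfamily, of the epoxygenase Cyp2j5 and of several Cyp2d enzymes. CYP1B1 is known from mesenchymal and vascular cells, where it oxidises oestrogens, retinoids and polycyclic hydrocarbons. The members were placed in functional classes by textbook role. In addition, 15 were listed as tubule-type, 4 as stromal and 3 as leukocyte-type, and 42 were left unassigned. Some listed genes, among them Cyp7b1, Cyp4b1, Cyp2u1 and Cyp27a1, are also known in other cell types.

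The values were log2 intensities summarised per probe set by RMA, with array medians of 4.93 to 5.06. Within groups, pairs of arrays correlated at 0.918 to 0.985 over all probe sets. To be tested, a gene had to exceed the 40th percentile of the array's values on 3 or more arrays. Of the members 33 passed and 31 were dim, with values of 2.84 to 5.19. A member that passed only because it was bright in some groups was bound to look variable, so counts over the 33 describe the tested members and not the family. The marker means did not match the label of the uninjured arrays, although the receptor genes Pdgfra and Pdgfrb were not lower there as a pair. The mean of 8 fibroblast markers was 5.47 to 6.13 there, against 8.47 to 8.74 at folic acid day 3 and 8.99 to 9.69 in UUO, and Col1a1, the main fibrillar collagen gene, had a mean of 6.81 against 12.05 and 12.23. Not all 8 differed: 4 were called as higher at day 3 and 6 in UUO. In the same 3 groups Col1a2 had means of 3.90, 4.03 and 5.67, and Lum of 3.74, 4.16 and 8.01. Pdgfra itself, the sorting marker, was at 6.01 ± 0.38 (SD, n = 3) in uninjured kidney, 6.69 ± 0.55 at day 3 and 5.99 ± 0.48 in UUO. Its means at days 7 and 14 were 5.50 and 5.28. Pdgfrb, another of the fibroblast markers, had means of 9.53 in uninjured kidney, 10.32, 9.94 and 9.32 at days 3, 7 and 14, and 9.70 in UUO. Neither receptor gene was called against uninjured kidney. The low fibroblast mean of the uninjured arrays thus did not extend to these receptor genes. The mean of 10 proximal tubule markers was 7.86 to 9.10 in the uninjured arrays, 6.09 to 6.42 at folic acid day 3, 5.46 to 7.99 at day 7, 6.68 to 8.63 at day 14 and 5.30 to 5.71 in UUO. The mean of 7 distal nephron markers was 9.09 to 9.84 in the uninjured arrays and 5.63 to 6.14 in UUO. Macrophage markers averaged 4.91 to 5.36 in uninjured kidney, 8.20 to 8.68 at day 7 and 7.78 to 9.14 at day 14 of folic acid, and 6.19 to 6.36 in UUO. In such sorted bulk samples, fewer cells of a type and less RNA per cell cannot be told apart. Each change was therefore set beside these marker means, and was refitted with each array's proximal tubule mean as a covariate. That mean differed between the groups, so the covariate and the group share part of the same difference. It also averaged unlike genes. In UUO Slc5a2 and Kap differed by -0.34 and -0.09 and Slc7a13 was too dim to test. The 7 markers called there differed by -2.75 (Slc22a6) to -5.54 (Slc27a2).

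The P450 members did not move in 1 direction. One stromal gene, Cyp1b1, rose in every injury group, and a handful of tubule-type genes fell, above all in UUO. Of the 33 tested members, 10 changed in at least 1 of the 6 planned comparisons and 23 in none, by limma with Benjamini-Hochberg adjustment over 13523 genes at an adjusted p under 0.05. The matching share of all tested genes was not counted, so 10 of 33 cannot be read as many or few. At folic acid day 3, 2 members rose, Cyp1b1 and Cyp7b1, and 2 fell, Cyp2d26 and Cyp2j5, where 10.6% of all tested genes rose and 6.39% fell. At day 7, 3 rose, Cyp1b1, Cyp7b1 and Cyp4f16, and Cyp2j5 fell, against 7.5% and 4.19% of all genes. At day 14 of folic acid Cyp1b1 alone rose and 0 members fell, against 4.2% and 1.47%. In UUO 2 rose, Cyp1b1 and Cyp7b1, and 6 fell, Cyp2j5, Cyp4a10, Cyp2d26, Cyp4a31, Cyp4b1 and Cyp2e1, against 9.07% and 7.52%. Over the 33 members the median change was -0.07 (day 3), -0.15 (day 7), -0.03 (day 14) and -0.07 (UUO) on the log2 scale, beside 0.02, 0.01, 0.02 and -0.01 for all tested genes. An F test over the 5 groups called 7 members, Cyp1b1, Cyp2j5, Cyp4a10, Cyp4b1, Cyp4a31, Cyp2d26 and Cyp7b1, where it called 15.3% of all tested genes. Without uninjured array 15 2 members were called at day 3 in place of 4, 1 at day 7 in place of 4, 0 at day 14 in place of 1, and 5 in UUO in place of 8. The 4 comparisons with uninjured kidney share their 3 control arrays. The split of all calls into higher and lower moved with the scaling. Of the calls against uninjured kidney, 62.5% (day 3), 64.2% (day 7), 74.1% (day 14) and 54.7% (UUO) were higher. Quantile normalisation gave 51%, 51.6%, 59.4% and 48.3%, the last with more lower than higher calls, and median centring gave 71.8%, 71.9%, 81.1% and 62%. Under quantile normalisation the median shift of the tested genes' values ran from -0.014 (days 3 and 7) to 0.012 (UUO) by group. Such a median does not show how far single genes moved.

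**Figure D1:**
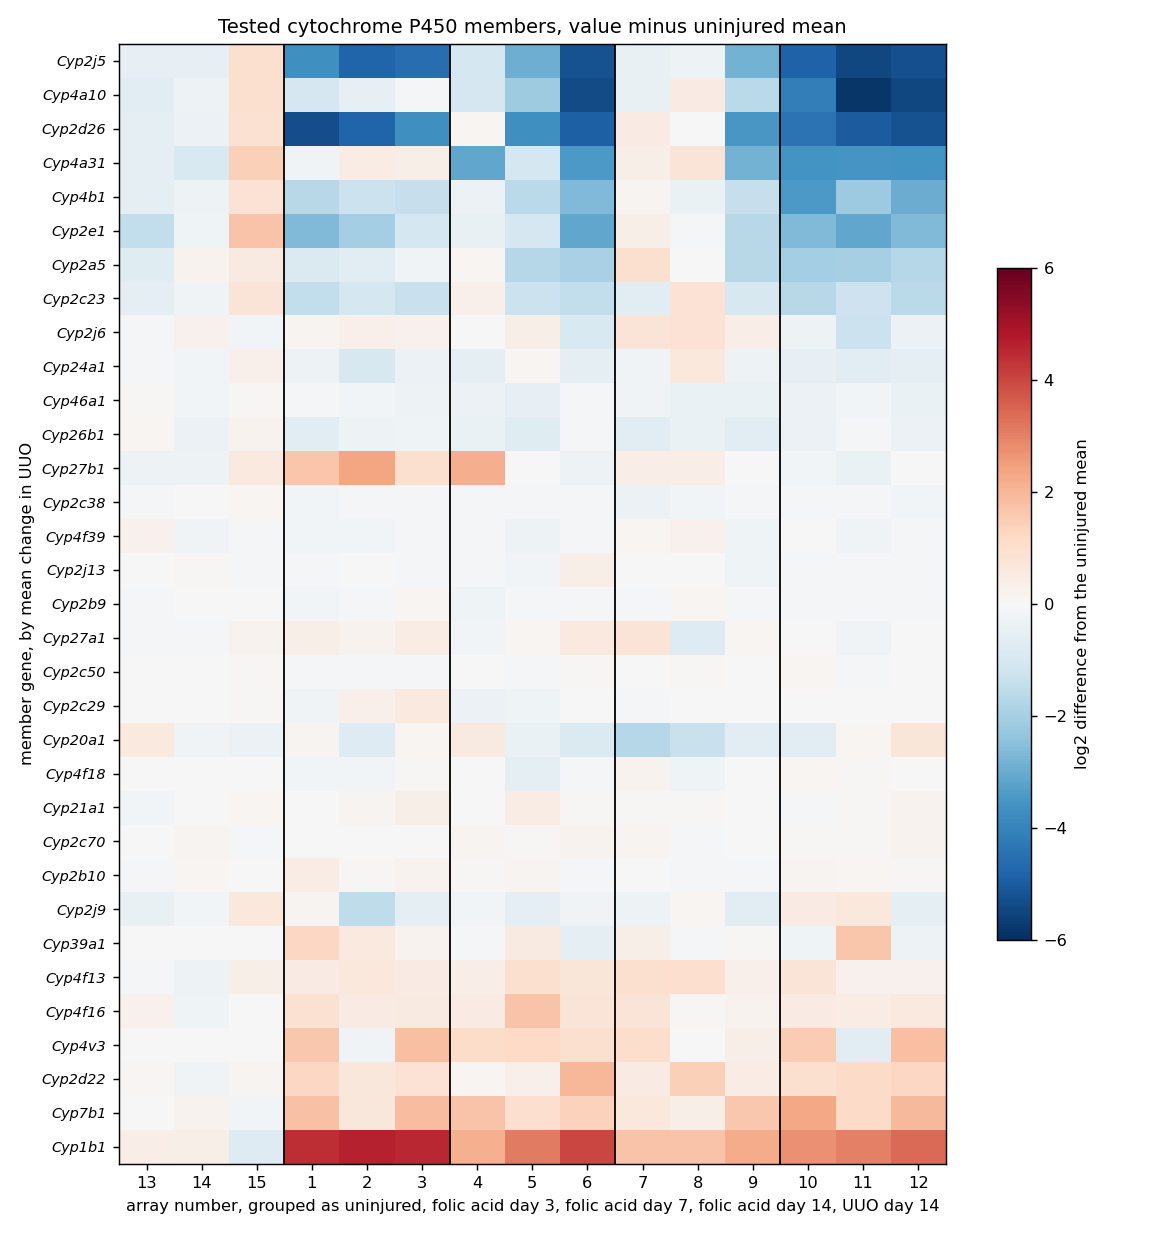
The 33 tested members (rows) in the 15 arrays (columns, grouped), as the log2 difference of each value from the member's uninjured mean, with red higher and blue lower. Cyp1b1 is red in all 12 injured arrays, and the blue cells lie mostly in 6 tubule-type genes at the top, most evenly in the 3 UUO arrays.

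Cyp1b1 was the member that rose furthest. Its values were 7.40, 7.34 and 6.23 in uninjured kidney, 11.42, 11.60 and 11.50 on day 3 of folic acid, 9.11, 10.13 and 11.00 at day 7, 8.68, 8.68 and 9.21 at day 14, and 9.73, 10.02 and 10.40 in UUO. All 12 injured arrays lay above all 3 uninjured arrays, and the 3 day 3 arrays lay above every other array. The change was 4.51 ± 0.42 (SE) at day 3, or 22.9-fold (adjusted p = 2.9e-05, limma), 3.09 ± 0.42 at day 7 (adjusted p = 0.000576), 1.86 ± 0.42 at day 14 (adjusted p = 0.022) and 3.06 ± 0.42 in UUO, or 8.33-fold (adjusted p = 0.000407). The order of group means was uninjured (6.99), folic acid day 14 (8.86), UUO (10.05), day 7 (10.08) and day 3 (11.51). UUO and day 7 overlapped, and so did day 7 and day 14. Between days 3 and 14 of folic acid, Cyp1b1 fell by 2.65 (adjusted p = 0.00631, limma), a comparison in which 1.22% of all genes were higher and 1.83% lower. It was the one member called there, lower, and 0 members were higher. Without folic acid array 4, 6 or 9, Cyp2j5 was called as higher at day 14 than at day 3 (3.18, 3.18 and 4, adjusted p = 0.0349, 0.031 and 0.0381), and without array 4 or 9 so was Cyp2d26 (3.59 and 4.84, adjusted p = 0.0463 and 0.0397).

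The rise of Cyp1b1 at days 3 and 7, and its fall from day 3 to day 14, passed the test in all 24 alternatives run. When the proximal tubule mean was a covariate, the changes were 3.23 at day 3 (adjusted p = 0.000221, limma), 2.08 at day 7 and 1.60 at day 14. In UUO the change with the covariate was 1.26 and no longer passed (adjusted p = 0.109, limma). The rise at day 14 was lost in 5 alternatives, among them leaving out uninjured array 15, folic acid array 7 or folic acid array 9 (adjusted p = 0.088, 0.0502 and 0.08), fitting the 6 arrays alone (adjusted p = 0.0518) and averaging the probe sets (adjusted p = 0.167). The fibroblast marker mean was also higher in every injury group: 8.47 to 8.74 at day 3, 7.93 to 8.56 at day 7, 6.93 to 8.41 at day 14 and 8.99 to 9.69 in UUO. Its group means followed the order of Cyp1b1 over the folic acid days, at 8.61 (day 3), 8.23 (day 7) and 7.71 (day 14). UUO, at 9.26, was the highest group for the markers but not for Cyp1b1. The part of the fibroblast markers in the change of Cyp1b1 was not tested. A second probe set of Cyp1b1 had an uninjured mean of 4.61, folic acid means of 9.86 (day 3), 7.83 (day 7) and 6.06 (day 14), and 7.83 in UUO, the same order of days. The remaining probe set had 4.99, 6.94, 4.95, 4.72 and 4.70, higher at day 3 but at or below its uninjured mean in the other 3 injury groups.

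The other stromal members were not called or were too dim to test. Cyp26b1, which clears retinoic acid, had an uninjured mean of 5.59, folic acid means of 5.19 (day 3), 5.19 (day 7) and 5.02 (day 14), and a UUO mean of 5.33. Its values ran from 4.87 to 5.80 over all arrays, and the largest difference, -0.57 at day 14, did not pass (adjusted p = 0.118, limma). Cyp1a1, the classical target of the aryl hydrocarbon receptor, and Cyp2u1, a fatty acid hydroxylase, were dim and were not tested.

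The promoter of Cyp1b1 is shown because AhR and its partner Arnt, which bind the core GCGTG, are known activators of this gene, beside those of Cyp2d26 and Cyp2j5, tubule-type members that fell at day 3 and in UUO. Each is the run of 250 bases before the RefSeq start in GRCm38.p6, on the gene's strand, here minus for all 3, with motif matches in capitals. They lie at chr17:79715062-79715311, chr15:82794246-82794495 and chr4:96664120-96664369.
Cyp1b1: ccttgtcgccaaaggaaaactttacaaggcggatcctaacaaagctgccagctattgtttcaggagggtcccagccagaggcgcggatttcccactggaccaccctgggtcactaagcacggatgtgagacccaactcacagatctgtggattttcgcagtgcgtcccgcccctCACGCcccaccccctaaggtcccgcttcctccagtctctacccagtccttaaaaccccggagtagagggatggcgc
Cyp2d26: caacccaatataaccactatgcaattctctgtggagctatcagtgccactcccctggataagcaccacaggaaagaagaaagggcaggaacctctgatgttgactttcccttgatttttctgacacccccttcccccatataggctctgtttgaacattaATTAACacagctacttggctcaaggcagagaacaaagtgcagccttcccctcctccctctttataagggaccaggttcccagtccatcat
Cyp2j5: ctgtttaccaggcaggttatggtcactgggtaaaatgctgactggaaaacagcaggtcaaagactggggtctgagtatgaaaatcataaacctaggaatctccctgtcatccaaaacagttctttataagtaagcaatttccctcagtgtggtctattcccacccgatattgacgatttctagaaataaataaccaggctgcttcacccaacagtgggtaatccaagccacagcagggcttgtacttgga

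The search covered 3 motifs on both strands: the AhR and Arnt core GCGTG, the HNF1 half-site GTTAAT, and a direct repeat of AGGNCA with 1 base between its copies, to which nuclear receptors such as PPAR and HNF4 bind. Cyp1b1 held the AhR core once, read as CACGC, 76 bases before its start. Cyp2d26 held the HNF1 half-site once, read as ATTAAC, 90 bases before its start. None of the 3 motifs was found in this window of Cyp2j5. The AhR core lay in 28.2% of 32851 promoters of the same length, the HNF1 half-site in 6.4% and the direct repeat in 0.3%. The 47 members matched by symbol had 54 such promoters, of which 12, 3 and 2 held them. These belonged to 11, 3 and 2 members. A match describes these letters only.

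Of the tubule-type members, Cyp2d26 and Cyp2j5 fell at day 3 as well as in UUO. Cyp2d26, a kidney and liver enzyme of the Cyp2d drug oxidases, had values of 9.41, 9.68 and 10.94 in uninjured kidney, 4.71, 5.19 and 6.31 at day 3, 10.14, 6.35 and 5.12 at day 7, 10.48, 10.00 and 6.50 at day 14, and 5.59, 5.00 and 4.78 in UUO. Day 3 and UUO lay wholly below uninjured kidney, while days 7 and 14 spread from uninjured levels downward. Cyp2d26 fell by 4.61 at day 3 (SE 1.19, adjusted p = 0.0192, limma) and fell by 4.89 in UUO (SE 1.19, adjusted p = 0.0142). Its differences of -2.81 at day 7 and -1.02 at day 14 did not pass (adjusted p = 0.15 and 0.685, limma), but without folic acid array 4 the day 7 difference was -4.27 and passed (adjusted p = 0.0166). Without uninjured array 15 neither decrease passed (adjusted p = 0.0759 and 0.0602, limma), and the one at day 3 was also lost without folic acid array 1 or 2. With the proximal tubule covariate the difference was -0.65 at day 3 and turned to 0.66 in UUO (adjusted p = 0.567 and 0.702).

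Cyp2j5 turns arachidonic acid into epoxides in the proximal tubule. Its values were 8.94, 8.97 and 10.43 in uninjured kidney, 5.75, 4.62 and 4.89 at day 3, 8.41, 6.50 and 4.22 at day 7, 9.02, 9.16 and 6.63 at day 14, and 4.60, 4.00 and 4.17 in UUO. Every array of days 3 and 7 and of UUO lay below the uninjured arrays, and day 14 overlapped them. It fell by 4.36 at day 3, a 20.5-fold decrease (SE 0.91, adjusted p = 0.00614, limma), fell by 3.07 at day 7 (SE 0.91, adjusted p = 0.0465) and fell by 5.19 in UUO, a 36.4-fold decrease (SE 0.91, adjusted p = 0.00215). The decreases at day 3 and in UUO were lost in 1 of 24 alternatives, the proximal tubule covariate, where they were -1.27 and -0.86 (adjusted p = 0.0536 and 0.358). The day 7 call was kept in 9 of 24 alternatives, and without uninjured array 15 it was -2.58 (adjusted p = 0.165, limma). A second probe set of Cyp2j5 had an uninjured mean of 7.54, folic acid means of 5.17 (day 3), 5.17 (day 7) and 6.24 (day 14), and 4.91 in UUO.

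**Figure D2:**
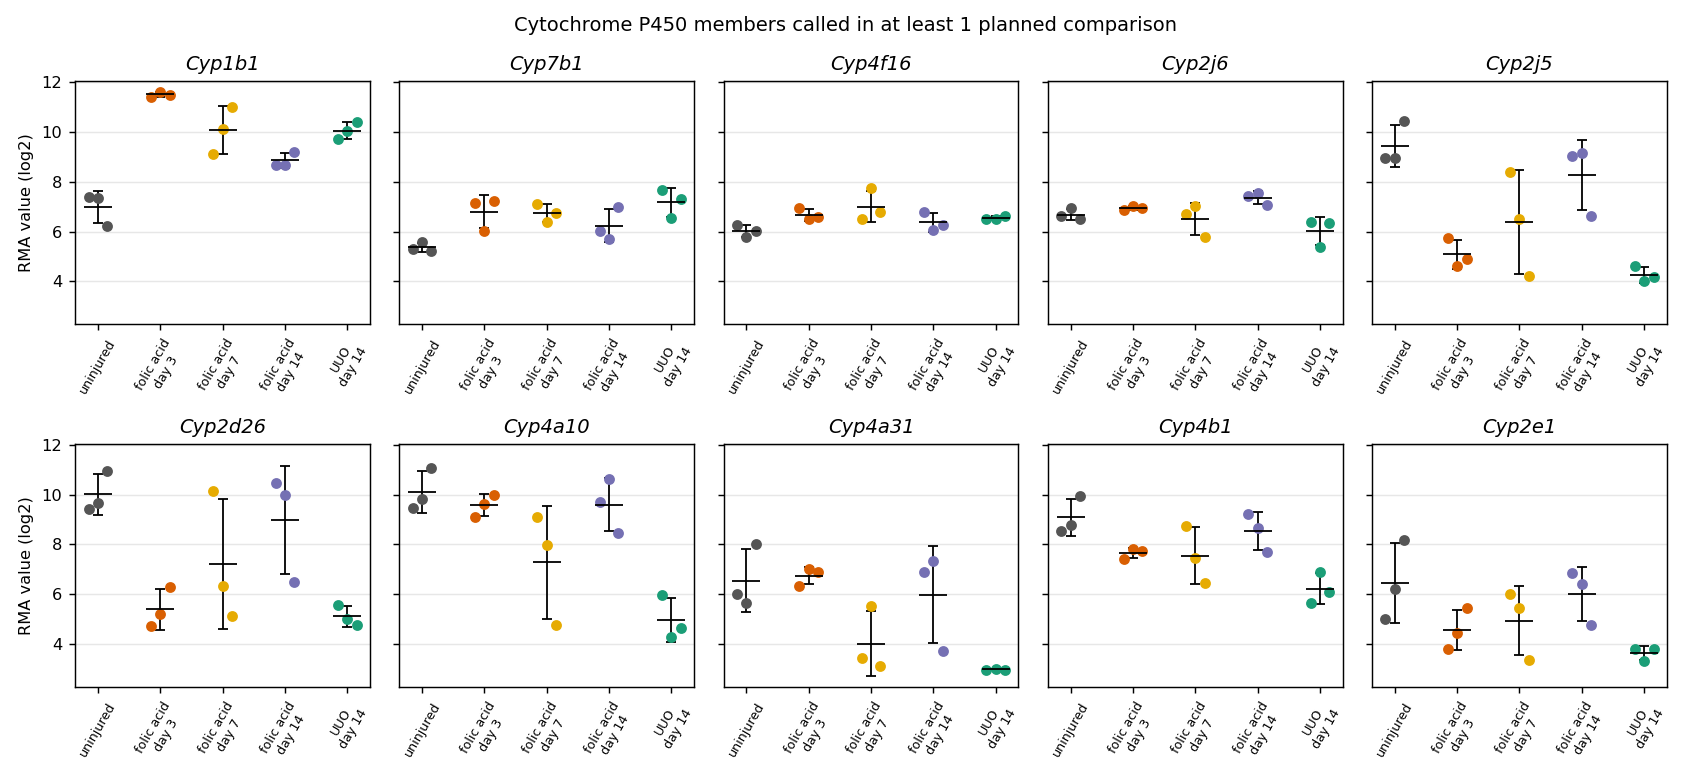
RMA values (log2) of the 10 members called in at least 1 planned comparison, 1 point per array, in the 5 groups, with the horizontal line at the group mean and bars of 1 SD. Cyp1b1 and Cyp7b1 lie lowest in uninjured kidney, while Cyp2j5, Cyp2d26, Cyp4a10, Cyp4a31, Cyp4b1 and Cyp2e1 have their lowest means in UUO.

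The Cyp4a members fell in UUO and were not called at day 3. Cyp4a10, a fatty acid omega-hydroxylase and a known PPAR-alpha target, had values of 9.46, 9.82 and 11.06 in uninjured kidney, 9.12, 9.61 and 10.00 at day 3, 9.10, 7.97 and 4.76 at day 7, 9.69, 10.62 and 8.48 at day 14, and 5.97, 4.28 and 4.65 in UUO. Day 3 overlapped uninjured kidney, day 7 spread over more than 4 units, and UUO lay below all arrays but array 6 of day 7. The change was -0.53 ± 0.93 (SE) at day 3 (adjusted p = 0.741, limma) and -2.84 ± 0.93 at day 7 (adjusted p = 0.0675). The day 7 difference passed without folic acid array 4, at -3.75 (adjusted p = 0.0197, limma), with quantile normalisation (adjusted p = 0.0419) and with array weights (adjusted p = 0.0438). In UUO Cyp4a10 fell by 5.15, a 35.4-fold decrease (SE 0.93, adjusted p = 0.00258, limma), which 1 of 24 alternatives removed: with the proximal tubule covariate it was -1.09 (adjusted p = 0.54). Cyp4a31, a close relative, had values of 6.00, 5.66 and 8.00 in uninjured kidney, 6.35, 7.01 and 6.90 at day 3, 3.44, 5.51 and 3.11 at day 7, 6.90, 7.32 and 3.74 at day 14, and 2.97, 3.02 and 2.98 in UUO. Day 3 again lay within the uninjured range and UUO below every other array. It fell by 3.56 in UUO (SE 0.89, adjusted p = 0.0162, limma), and its difference of 0.20 at day 3 did not pass (adjusted p = 0.904). At day 7 its difference of -2.54 did not pass (adjusted p = 0.0866), and passed without folic acid array 9 (adjusted p = 0.0265). Without uninjured array 15 the UUO decrease was -2.84 (adjusted p = 0.0738), and with the covariate -0.81 (adjusted p = 0.807). The Cyp4a genes are near-copies of one another, and how far the 2 probe sets also detect other copies was not checked.

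Cyp4a10 was also set against Cyp2j5 within each array. Since a probe set has its own brightness, only the change of this distance between groups can be read. Cyp4a10 minus Cyp2j5 was 0.52, 0.84 and 0.64 in uninjured kidney and 3.37, 4.99 and 5.11 at day 3. It was 0.69, 1.47 and 0.55 at day 7, 0.67, 1.46 and 1.85 at day 14, and 1.37, 0.28 and 0.47 in UUO. The 3 day 3 arrays stood above all other 12 arrays. The mean at day 3 exceeded that in uninjured kidney by 3.82. Against Cyp2d26, the corresponding increase was 4.07, and against the proximal tubule marker mean it was 1.56. These pairs were chosen after their values were seen, for the separation they show. Their 2-sided exact permutation p of 0.1, the smallest that 3 arrays against 3 can give, was therefore fixed by that choice and gives no support. With the proximal tubule covariate, the day 3 difference of Cyp4a10 itself was 2.36 ± 0.63 (SE, adjusted p = 0.0484, limma). A further Cyp4a gene outside the symbol rule, Cyp4a12a, was at 4.38, 3.79 and 4.80 in uninjured kidney and 6.11, 6.91 and 6.62 at day 3. Its mean was 3.81 at day 7, 4.18 at day 14 and 3.67 in UUO. Outside day 3, 1 of its 12 arrays exceeded the 40th percentile of the array, so it was tested through its high group, and its values are given as a description with no test.

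**Figure D3:**
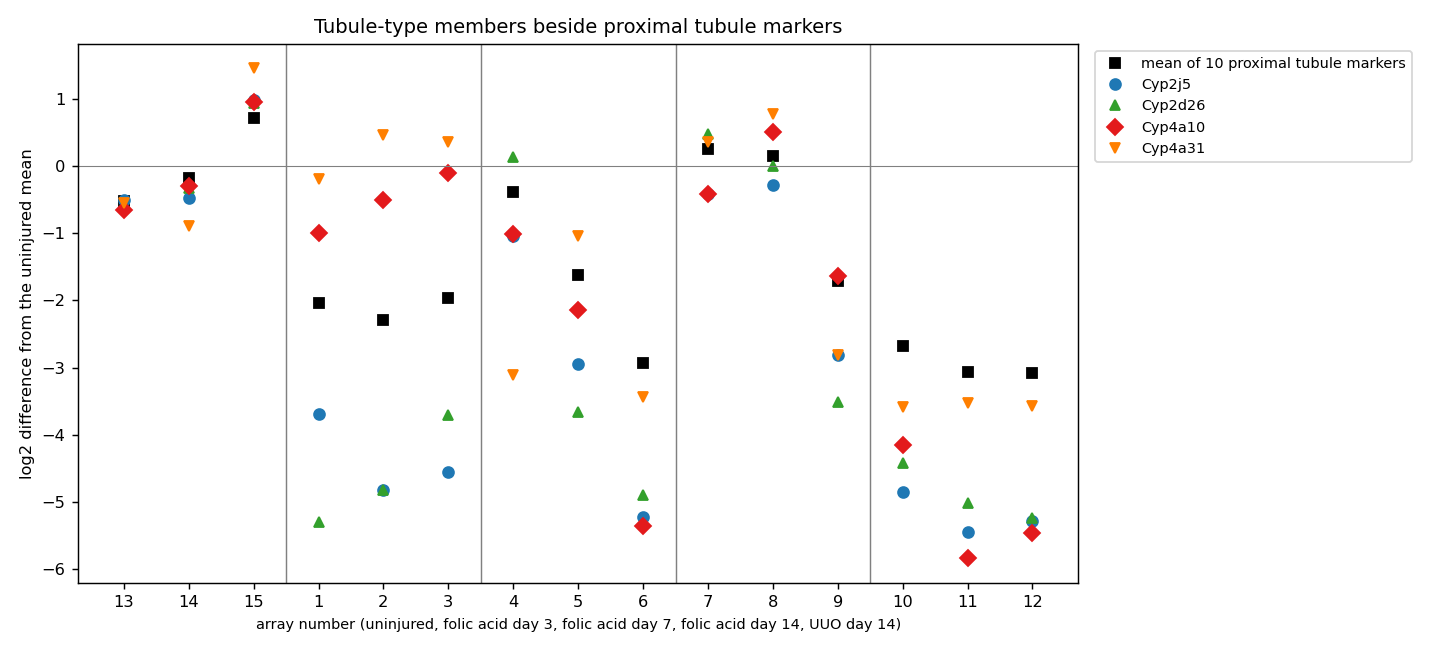
Cyp2j5, Cyp2d26, Cyp4a10 and Cyp4a31 in each of the 15 arrays as log2 differences from their uninjured means, with the mean of 10 proximal tubule markers as black squares. In the 3 day 3 arrays Cyp4a10 and Cyp4a31 lie above the marker mean and Cyp2j5 and Cyp2d26 below it, while in UUO all 4 genes lie below it. The mean includes markers that changed little (Slc5a2, Kap and the dim Slc7a13). The 7 markers called in UUO differed there by -2.75 (Slc22a6) to -5.54 (Slc27a2).

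Cyp4b1 hydroxylates short fatty acids and some foreign compounds. Its values were 8.54, 8.78 and 9.94 in uninjured kidney, 7.41, 7.80 and 7.72 at day 3, 8.73, 7.45 and 6.46 at day 7, 9.23, 8.67 and 7.71 at day 14, and 5.66, 6.89 and 6.10 in UUO. The UUO and day 3 arrays lay below the uninjured arrays, and days 7 and 14 overlapped them. Cyp4b1 fell by 2.87 in UUO, a 7.32-fold decrease (SE 0.56, adjusted p = 0.0043, limma). The UUO decrease was -0.57 with the covariate (adjusted p = 0.683). At day 3 the difference was -1.44 (adjusted p = 0.101, limma), which passed with quantile normalisation (adjusted p = 0.044) and with the 6 arrays alone (adjusted p = 0.0335). At day 7 it was -1.54 (adjusted p = 0.0999), which passed without folic acid array 4 (adjusted p = 0.0228) and with quantile normalisation (adjusted p = 0.0498). Cyp2e1, the ethanol-inducible oxidase, was chosen for mention after its values were seen. It stood at 4.99, 6.23 and 8.18 in uninjured kidney and at 3.80, 3.34 and 3.80 in UUO, with group means of 4.56, 4.94 and 6.01 at days 3, 7 and 14 of folic acid. Its uninjured arrays spread over more than 3 units, and all lay above the UUO arrays. It fell by 2.82 in UUO (SE 0.84, adjusted p = 0.0374, limma). Without uninjured array 15 the difference was -1.97 (adjusted p = 0.153), leaving out any one UUO array (adjusted p = 0.0741 to 0.103) or uninjured array 14 also ended the call, and with the covariate it turned to 0.72 (adjusted p = 0.704).

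The tubule-type list, chosen with earlier results of these data known, held 13 tested members of 15. In UUO 6 fell and 1 rose, at day 3 2 fell and 1 rose, at day 7 1 fell and 1 rose, and at day 14 of folic acid 0 changed. Of all tested genes, 7.52% fell and 9.07% rose in UUO, and 6.39% and 10.6% at day 3. The shares were 4.19% and 7.5% at day 7, and 1.47% and 4.2% at day 14. The medians were -1.92, -0.53, -1.18 and -0.23 on the log2 scale, beside -0.01, 0.02, 0.01 and 0.02 for all tested genes. The proximal tubule markers moved in the same comparisons: of 9 tested, 7 fell in UUO, 4 at day 3, 1 at day 7 and 0 at day 14, with medians of -3.32, -2.46, -2.29 and -0.60. Of 7 distal nephron markers, 7 fell in UUO and 5 at day 3. With the proximal tubule covariate, 0 members were called in UUO and 3 at day 3. Among tubule-type members that were not called, 2 are named after their values were seen. Cyp2a5, an oxidase of coumarin and nicotine, had means of 6.99 in uninjured kidney and 5.07 in UUO (difference -1.92, adjusted p = 0.0574, limma). Cyp2d22 differed the other way, with 5.24 and 6.35 (difference 1.11, adjusted p = 0.0935, limma). Its other probe set differed further, with an uninjured mean of 4.55 and 6.13 in UUO. The folic acid means of that probe set were 6.87 (day 3), 6.06 (day 7) and 5.61 (day 14), and it was not tested by itself.

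**Figure D4:**
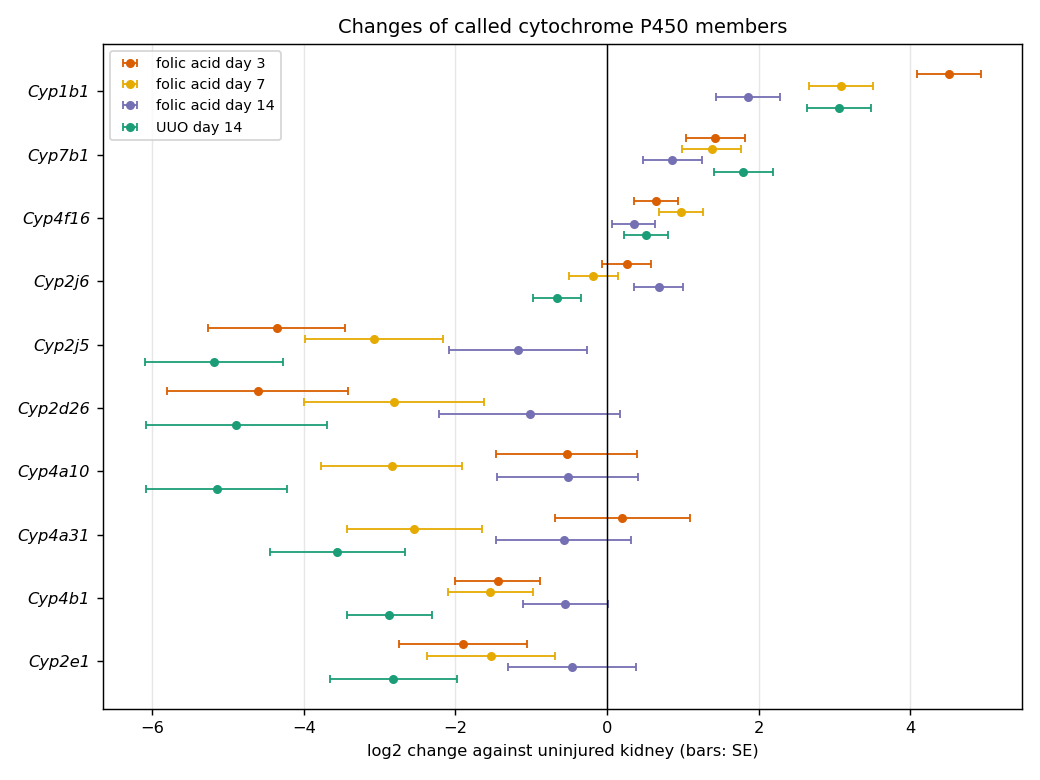
Log2 change against uninjured kidney with its SE for the 10 called members, in the 3 folic acid groups and UUO. Cyp1b1 lies to the right of 0 in all 4 groups, and Cyp4a10 and Cyp4a31 are near 0 at folic acid day 3 but at -5.15 and -3.56 in UUO.

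Among the bile acid and oxysterol enzymes, 1 of 4 tested members changed. Of all tested genes, 10.6% rose and 6.39% fell at day 3, 7.5% and 4.19% at day 7, and 9.07% and 7.52% in UUO. A count out of 4 is too small to set against these shares. Cyp7b1, which hydroxylates oxysterols and some steroids, had values of 5.32, 5.57 and 5.21 in uninjured kidney, 7.14, 6.03 and 7.22 at day 3, 7.10, 6.39 and 6.76 at day 7, 6.02, 5.71 and 6.97 at day 14, and 7.67, 6.53 and 7.32 in UUO. All injured arrays lay above the uninjured ones. Cyp7b1 rose by 1.43 at day 3 (SE 0.39, adjusted p = 0.0268, limma), by 1.38 at day 7 (adjusted p = 0.0409) and by 1.80 in UUO, or 3.49-fold (adjusted p = 0.00794), and its difference of 0.86 at day 14 did not pass (adjusted p = 0.241). It was listed as tubule-type, yet rose where the tubule markers fell. With the proximal tubule covariate the changes were 1.21 at day 3, 1.21 at day 7 and 1.5 in UUO, none past the threshold (adjusted p = 0.247, 0.201 and 0.318). Leaving out uninjured array 13, 14 or 15, or averaging the 3 probe sets, ended the calls at days 3 and 7 but not in UUO. So did leaving out folic acid array 1 or 3 at day 3, and array 4, 5, 6 or UUO array 12 at day 7. A second probe set of Cyp7b1 lay between 4.20 and 4.34 in every group mean, and the remaining one had means of 3.09 in uninjured kidney and 4.80 in UUO. Cyp27a1, the mitochondrial sterol 27-hydroxylase, was the brightest uncalled member of the class, with means of 6.84, 7.16, 7.02, 6.87 and 6.77 in uninjured kidney, days 3, 7 and 14 of folic acid and UUO. Its largest difference from uninjured kidney was 0.32 (adjusted p = 0.518, limma).

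The vitamin D enzymes gave 0 calls among 2 tested members, too few to set against the shares of all tested genes. Cyp27b1, the enzyme that makes active vitamin D, was chosen for mention after its values were seen. It stood at 4.45, 4.48 and 5.36 in uninjured kidney, 6.45, 7.11 and 5.71 at day 3, 6.95, 4.72 and 4.45 at day 7, 5.14, 5.17 and 4.75 at day 14, and 4.62, 4.38 and 4.76 in UUO. The day 3 arrays all lay above the uninjured arrays, but the difference of 1.66 ± 0.55 (SE) did not pass (adjusted p = 0.0565, limma). Cyp24a1, which degrades active vitamin D, had means of 7.00, 6.45, 6.67, 7.05 and 6.43 in the same group order, and no difference passed (-0.57 in UUO, adjusted p = 0.192, limma). Its other probe set had means of 4.68, 5.01, 4.29, 5.85 and 3.80, higher than uninjured kidney at day 3 where the first was lower.

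The remaining classes gave few tested members or no further calls. Of the steroid hormone enzymes 1 of 5 was tested, Cyp21a1, the 21-hydroxylase of the adrenal, with group means between 5.36 and 5.54. Cyp20a1, whose substrate is not established, had an uninjured mean of 6.57 and one of 5.31 at folic acid day 14 (difference -1.26, adjusted p = 0.132, limma). The drug and foreign compound oxidases were mostly dim, with 12 of 31 tested, among them Cyp2c50, whose largest difference from uninjured kidney was -0.08 at day 3 (adjusted p = 0.674). Cyp2c23, another arachidonic acid epoxygenase, named after its values were seen, was at 6.53 in uninjured kidney, 5.25 at day 3 and 5.03 in UUO, and did not pass (adjusted p = 0.12 and 0.0737). Of the fatty acid and eicosanoid hydroxylases 12 of 16 were tested, and Cyp4v3, a fatty acid omega-hydroxylase, had means of 5.10, 6.19, 6.19, 5.56 and 6.01. Its differences were 1.09 at day 3, 1.09 at day 7 and 0.91 in UUO, and none passed (adjusted p = 0.245, 0.277 and 0.35, limma). The day 7 difference passed with the 6 arrays alone (adjusted p = 0.00849), and the UUO difference was 1.68 and passed without UUO array 11 (adjusted p = 0.046). The 31 dim members, among them Cyp11a1, Cyp17a1, Cyp1a2 and the 5 genes of the Cyp3a subfamily, gave no measure of change.

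Cyp4f16 was the called member of the leukocyte-type list, of which all 3 members were tested. At day 7, where it was called, 7.5% of all tested genes rose, and a count out of 3 is too small to set against that share. It is a fatty acid hydroxylase of the Cyp4f subfamily. Its values were 6.27, 5.78 and 6.04 in uninjured kidney, 6.96, 6.51 and 6.58 at day 3, 6.51, 7.73 and 6.78 at day 7, 6.80, 6.08 and 6.25 at day 14, and 6.51, 6.49 and 6.62 in UUO. All day 7 arrays lay above the uninjured arrays, with 1 of them well above the others. It rose by 0.98 at day 7 (SE 0.29, adjusted p = 0.0442, limma), a call kept in 10 of 24 alternatives. Without uninjured array 15 the adjusted p was 0.109. Macrophage markers rose at day 7 in 5 of 7 and had a marker mean of 8.20 to 8.68, but were as high at day 14, where the difference of Cyp4f16 was 0.35 (adjusted p = 0.542, limma). Their part in this change was not tested.

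Both models were compared directly at day 14. In UUO 4 members were lower than at folic acid day 14, Cyp4a10, Cyp2j5, Cyp4b1 and Cyp2j6, and 0 were higher, where 1.75% of all tested genes were lower and 1.28% higher. All 4 belong to the 12 tested fatty acid and eicosanoid hydroxylases. The differences were -4.63 ± 0.93 (SE) for Cyp4a10 (adjusted p = 0.0198, limma), -4.01 ± 0.91 for Cyp2j5 (adjusted p = 0.0359) and -2.32 ± 0.56 for Cyp4b1 (adjusted p = 0.0463). Cyp2j6, a relative of Cyp2j5 chosen for mention after its values were seen, was at 7.44, 7.56 and 7.08 at folic acid day 14 and 6.37, 5.38 and 6.33 in UUO, a difference of -1.34 ± 0.32 (adjusted p = 0.0438). For these 4 genes the 3 UUO arrays lay below the 3 folic acid arrays. The same held for Cyp2d26 (-3.87) and Cyp2e1 (-2.36), drug and foreign compound oxidases that were not called (adjusted p = 0.104 and 0.16, limma). Of the 12 tested members of that class, 6 were below 0 and 6 above. The classes were chosen with earlier results known, so the 4 calls cannot be read as particular to the fatty acid class. In the same comparison the proximal tubule markers were lower in 2 of 9 and the distal nephron markers in 6 of 7, and with the proximal tubule covariate 0 members were called. Fitting the 6 arrays alone also gave 0 calls (adjusted p = 0.0555 for Cyp4a10). Leaving out folic acid array 7 or 8 or UUO array 11 or 12 gave 0 calls as well, and leaving out folic acid array 9 gave 7, with Cyp2d26 at -5.12 and Cyp4a31 at -4.12 among them (adjusted p = 0.0245 and 0.0103). Cyp2d26 also passed without array 4 (-3.87, adjusted p = 0.0328). Leaving out array 1, 2 or 3 of day 3, UUO array 10, or uninjured array 13 or 14 left 1 or 2. Over the 24 alternatives Cyp4a10 kept its call in 18, Cyp2j5 in 12, Cyp4b1 in 8 and Cyp2j6 in 7. Cyp1b1 was 1.19 higher in UUO, which did not pass (adjusted p = 0.154).

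A comparison of UUO with folic acid day 3 was added after the values were seen, because tubule markers were low in both. In it 0.606% of all tested genes were lower in UUO and 0.525% higher. Of the members, Cyp4a10 was lower, by -4.61 ± 0.93 (SE, adjusted p = 0.0309, limma), and 0 were higher. Here the call held with the proximal tubule covariate, at -3.45 (adjusted p = 0.00479). Leaving out any one day 3 array, UUO array 11 or 12, or uninjured array 14 ended the call (adjusted p = 0.124 and 0.0908 without the UUO arrays). Cyp4a31 differed by -3.76 (adjusted p = 0.0709, and 0.015 without folic acid array 9), Cyp2j5 by -0.83 (adjusted p = 0.813) and Cyp2d26 by -0.28 (adjusted p = 0.971). The proximal tubule markers gave 0 calls of 9 in this comparison, with a median of -0.60, 8 below 0 and 1 above. One of them, Slc27a2, differed by -3.88 (adjusted p = 0.0664, limma), close to Cyp4a31. Of 7 distal nephron markers 1 was called, Calb1, lower by 2.91 (adjusted p = 0.0404), with 5 below 0 and 2 above. A large difference here was therefore not particular to the Cyp4a genes.

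Of 30 partner genes of the family listed, 26 were measured. Of 6 tested electron donor and haem supply genes, 2 rose and 1 fell at day 3, 1 fell at day 7, 0 changed at day 14 and 2 fell in UUO. Of all tested genes, 10.6% rose and 6.39% fell at day 3, and 7.5% and 4.19% at day 7. The shares were 4.2% and 1.47% at day 14, and 9.07% and 7.52% in UUO. Counts out of 6 are too small to set against these shares. Alas1, the first enzyme of haem synthesis, rose by 1.10 at day 3 (adjusted p = 0.0193, limma), where Cyb5b, an electron donor of the outer mitochondrial membrane, fell by 0.69 (adjusted p = 0.038) and Hmox1, haem oxygenase, named after its value was seen, rose by 1.24 (adjusted p = 0.0249). Fdx1, the ferredoxin of mitochondrial P450 enzymes, fell by 1.49 at day 7 (adjusted p = 0.0206) and fell by 1.29 in UUO (adjusted p = 0.0293), where Cyb5a, also named after its value was seen, fell by 1.19 (adjusted p = 0.0456).

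Among 13 tested regulators, 2 rose and 3 fell in UUO, where 9.07% of all tested genes rose and 7.52% fell. At day 3, 1 rose and 2 fell (10.6% and 6.39% of all genes), at day 7, 1 rose and 1 fell (7.5% and 4.19%), and at day 14, 1 rose and 0 fell (4.2% and 1.47%). Arnt, the partner of AhR, was at 7.60, 6.76 and 6.78 in uninjured kidney, 8.95, 8.80 and 8.78 at day 3, 7.62, 8.48 and 8.69 at day 7, 7.99, 8.19 and 8.24 at day 14, and 9.15, 8.91 and 9.46 in UUO. It was above the uninjured arrays in all 12 injured arrays and rose by 1.80, 1.22, 1.10 and 2.13 (adjusted p = 0.00103, 0.0157, 0.0406 and 0.000326, limma). Ahr, the receptor, rose in UUO by 2.4 (adjusted p = 0.00838), with a mean of 7.31 against 4.91. At day 3 its mean was 5.45 (difference 0.54, adjusted p = 0.53). The part of Ahr or Arnt in the change of Cyp1b1 was not tested. Ppara, the fatty acid receptor that drives Cyp4a genes, had a mean of 7.67 in uninjured kidney and fell by 1.78 at day 3 (adjusted p = 0.0439), fell by 2.38 at day 7 (adjusted p = 0.0159) and fell by 2.23 in UUO (adjusted p = 0.0155). At day 3 Cyp4a10 overlapped its uninjured range. A link between the level of Ppara and that of Cyp4a10 was not tested. Vdr, the vitamin D receptor, fell by 1.58 at day 3 (adjusted p = 0.0133) and fell by 1.91 in UUO (adjusted p = 0.00447). Hnf4a, a hepatocyte and proximal tubule factor, fell by 3.61 in UUO (adjusted p = 0.0195), from 9.28 to 5.66. Ppara, Vdr and Hnf4a are expressed in the proximal tubule, whose markers were lower in the same groups, and the part of those markers in these changes was not tested.

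Of the P450 genes outside the symbol rule, Ptgis, prostacyclin synthase, a P450 of vascular and mesenchymal cells, rose in all 4 injury groups. It was at 5.36, 5.25 and 5.08 in uninjured kidney, 8.05, 7.88 and 7.77 at day 3, 7.86, 7.78 and 7.73 at day 7, 8.03, 5.94 and 6.89 at day 14, and 6.81, 7.20 and 7.90 in UUO. Its changes were 2.67, 2.56, 1.72 and 2.07 (adjusted p = 0.000861, 0.00162, 0.0271 and 0.00421, limma). The fibroblast marker mean was higher in the same groups, and its part in this change was not tested. Cyp51, the sterol 14-demethylase of cholesterol synthesis, fell by 1.21 at day 3 (adjusted p = 0.0169). Tbxas1, thromboxane synthase, fell by 0.46 in UUO (adjusted p = 0.0418).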

How the data were processed

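Amplified, biotin-labelled RNA of sorted cells from 15 samples was hybridised to 1-colour arrays. The authors deposited RMA values on the log2 scale for 45141 probe sets, and the submitters' processing notes also name affy and limma without versions. They were used without further normalization, and no detection call was used, so changes of dim genes are compressed. Genes were named through the platform annotation: 28898 probe sets name 1 gene, 551 several and 15692 none here, and 28689 were found by Entrez identifier, with 0 symbols changed. A linear model with a mean for each of the 5 groups was fitted with limma's lmFit and eBayes (version 3.58.1, R 4.3.3; 10 residual degrees of freedom), and compared by 2-sided moderated tests adjusted by Benjamini-Hochberg over 13523 genes within each comparison. The fit was tested on simulated data. No sample number occurs in more than 1 group, so no samples were paired.

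The members, lists and tests were chosen with earlier results of these data known. Named with all values were Cyp1b1 and, of the called members, the 5 highest and 5 lowest changes per comparison with uninjured kidney and the 3 highest and 3 lowest of the other 2. In each class or list the called member with the smallest F-test p and the brightest uncalled member were named by group means, with up to 12 called partner genes. Promoters came from RefSeq (GRCm38.p6); protein sequences were not used here. Alternatives were quantile normalization, median centring, a trended robust fit, array weights, 2 other filters, averaged probe sets, only the 6 arrays compared, a proximal tubule covariate and each array left out. Plots used matplotlib 3.10.9 in Python 3.11.15.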

Additional observations from a re-analysis of the deposited data

Results flagged for a closer look

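The differences below were tested directly between 2 injury groups by limma. In UUO compared with folic acid day 14, the log2 difference was -4.63 for Cyp4a10, -4.01 for Cyp2j5, -2.32 for Cyp4b1 and -1.34 for Cyp2j6. The calls were kept in 18, 12, 8 and 7 of 24 alternatives. With the proximal tubule covariate, with only the 6 arrays compared, and without folic acid array 7 or 8 or UUO array 11 or 12, 0 of them remained. In the same comparison 6 of 7 distal nephron and 2 of 9 proximal tubule markers were lower, and the part of the distal nephron markers was not tested. At folic acid day 14 compared with day 3 it was -2.65 for Cyp1b1, a call kept in all 24 alternatives. In UUO compared with folic acid day 3, a comparison added after the values were seen, it was -4.61 for Cyp4a10, a call lost without any one day 3 array, UUO array 11 or 12, or uninjured array 14.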

How the results depend on the processing

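Counts of members called moved by over 1.5 times as follows. With array weights the count was 8 in place of 4 at folic acid day 3, 2 in place of 4 in UUO against folic acid day 14, and 2 in place of 1 in UUO against day 3. With only the 6 arrays compared it was 8 at day 3, 0 in place of 1 at day 14, 0 in UUO against day 14 and 4 in UUO against day 3. With the proximal tubule covariate it was 1 in place of 4 at day 7, 0 in place of 8 in UUO, 0 in UUO against day 14, 2 in UUO against day 3 and 3 in place of 7 in the F test. Averaged probe sets gave 0 at day 14 and 2 in UUO against day 3, and no filter on dim genes gave 1 in UUO against day 14. Leaving out 1 array gave 2 to 6 at day 3, 1 to 6 at day 7, 0 to 1 at day 14, 5 to 10 in UUO, 0 to 7 in UUO against day 14, 1 to 4 between days 14 and 3, 0 to 2 in UUO against day 3 and 3 to 8 in the F test. Without array 1 or 15 the day 3 count was 2. At day 7 it was 2 without array 2, 3, 10 or 11 and 1 without array 5, 6, 12, 13, 14 or 15. At day 14 it was 0 without array 7 or 15. Between days 14 and 3 it was 4 without array 4, 2 without array 6 and 3 without array 9. In UUO against day 3 it was 2 without array 4 or 9 and 0 without array 1, 2, 3, 11, 12 or 14. The F test called 4 without array 3, 13, 14 or 15 and 3 without array 10 or 12. The covariate reversed the UUO changes of Cyp2d26 (0.66) and Cyp2e1 (0.72). The cause of these shifts was not tested. No paired analysis was possible because the groups share no sample numbers. The number of arrays, 3 a group, limits the precision, and no background signal was used.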
